A study of Saccharomyces cerevisiae with 11 samples.

Results

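Early in meiosis, yeast cells cut their own chromosomes, repair the breaks from the homologous chromosome and zip the homologs together. The genes that do this work are described here by where their translation starts. A list of 34 such genes was matched by name to the deposited gene annotation of the SK1 strain, and 33 of them were found among its 6707 genes. They carry 1195 of the 192230 candidate open reading frames (ORFs) in the deposited rating table, and 182 of the 25868 ORFs rated as translated. GMC2, whose protein works beside Ecm11, has no gene name in that annotation and is therefore not among the 33. By its locus tag its annotated ORF has a forest score of 0.904.

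Budding yeast (Saccharomyces cerevisiae) of the SK1 background, which sporulates efficiently, was given 3 µM lactimidomycin (LTM) before harvest, a drug that traps initiating ribosomes on the start codon, and ribosome-protected RNA was sequenced. Sporulation medium cultures were sampled at 0, 1.5, 3, 4.5, 6, 8, 10 and 22 h, and a MATa/a culture, which cannot enter meiosis, at 4.5 h. Vegetative cultures were taken in exponential growth (OD600 0.6) and at saturation (OD600 10). Each of these 11 libraries is the only one of its group, and the table analysed here holds 1 value per ORF and none per library. No gene can therefore be followed over the time course or set against MATa/a or vegetative cells, no value has a replicate error, and the depth behind the values is unknown.

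Meiotic recombination begins when the Spo11 complex breaks DNA along the protein axis of each chromosome. Strand exchange proteins, led by the recombinase Dmc1, then pair each broken end with the homolog, and a group of synapsis and crossover proteins turns some of these contacts into crossovers while the synaptonemal complex forms between the homologs. Many of these genes are silent in vegetative cells and are switched on together on entry into meiosis, and several need meiosis-specific splicing.

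Several deposited values describe each ORF. The forest score runs from 0 to 1, and an ORF is called rated here when it is above 0.5, a cut-off given in the notes deposited with the table. The LTM evidence is the deposited statistic for footprints at the start codon in LTM-treated cells. The CHX regression value comes from a data set named CHX that the notes do not describe. Neither is stated to be scaled to RNA level or length, so their order over genes describes the deposited values and not amounts of protein. Percentiles given below place a value among those of all 4814 annotated ORFs in the table.

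An ORF of the annotated class was listed for 29 of the 33 genes, and 27 of these 29 were rated, which is 93.1% (exact 95% interval 77.2 to 99.2%). Of all annotated ORFs 93.3% were rated. The median forest score was 0.861 for the members and 0.896 for all annotated ORFs. Median LTM evidence was 1608 for the members, with quartiles of 285 and 4596, and 2956 for all annotated ORFs, with quartiles of 623 and 8158. The CHX value ran the other way, with a median of 0.556 for the members and 0.295 for all annotated ORFs. Of the 29 members, 21 (72.4%) lay above the median of all annotated ORFs by CHX value and 11 (37.9%) by LTM evidence. As a description, the rank correlation of LTM evidence with CHX value was 0.34 over the 29 members and 0.41 over all annotated ORFs, which share libraries.

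**Figure D1:**
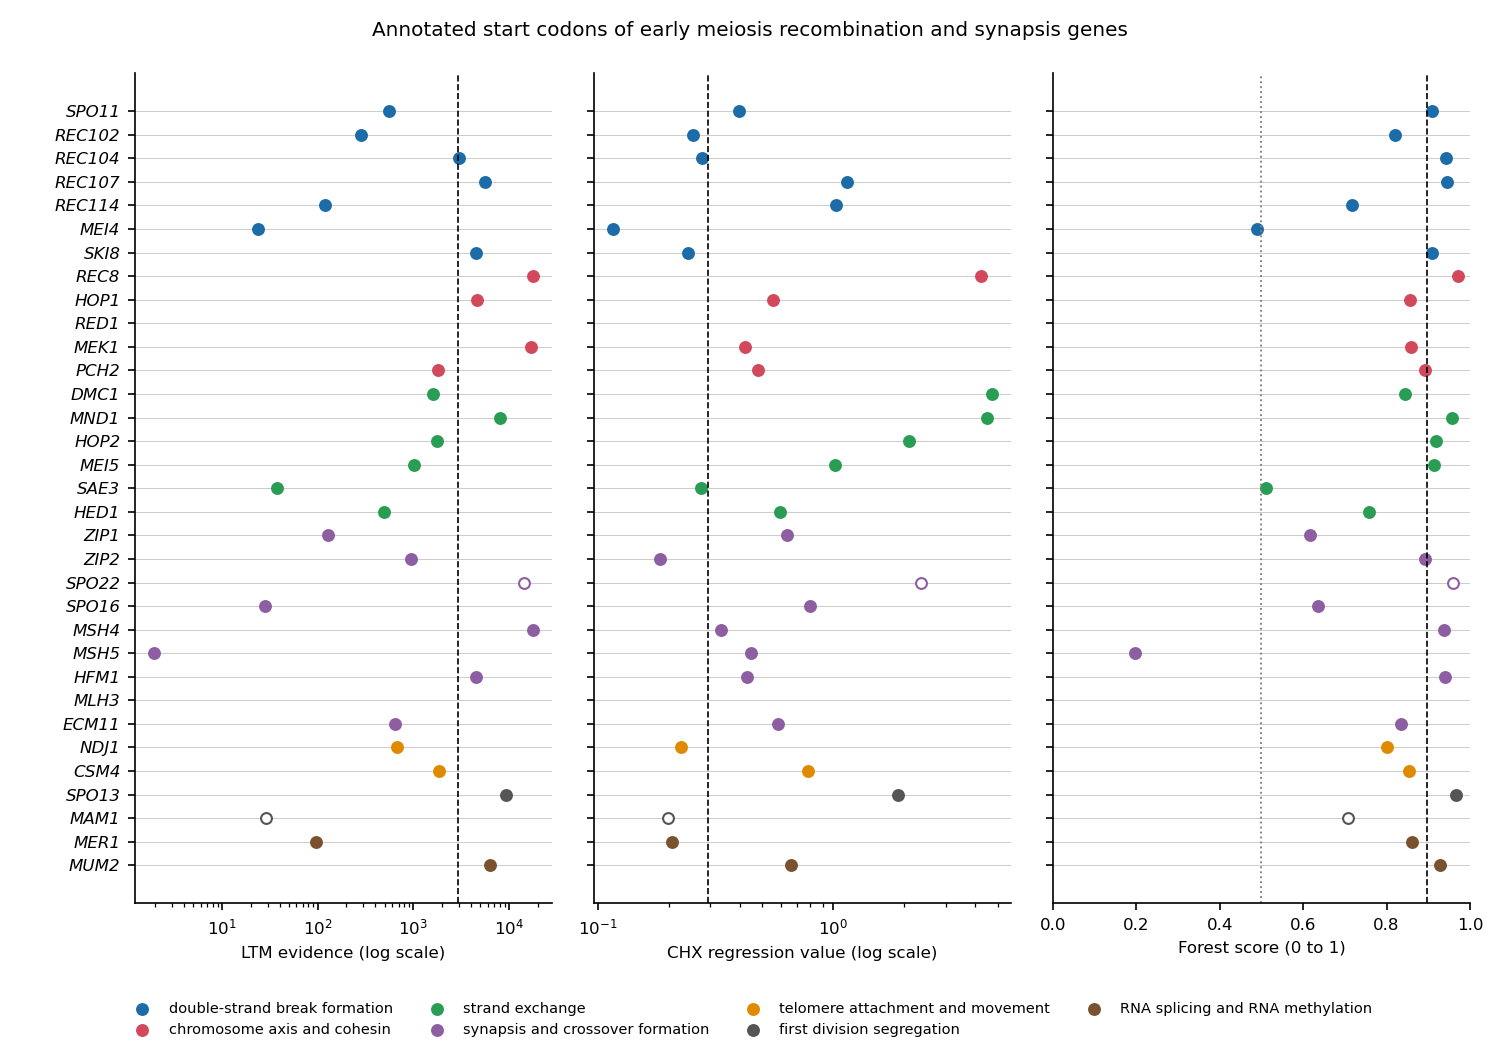
LTM evidence (log scale), CHX regression value (log scale) and forest score (0 to 1) at the annotated start codon of each gene, coloured by role; dashed lines mark the median of all annotated ORFs and the dotted line a forest score of 0.5. Open symbols are MAM1 and SPO22, whose row at the annotated start has another class, RED1 and MLH3 have no row there, and LTM evidence spans from 1.94 at MSH5 to 17930 at REC8.

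Among the genes of double-strand break formation, 6 of 7 annotated ORFs were rated. SPO11, which encodes the topoisomerase-like protein that cuts the DNA, had a forest score of 0.908 and LTM evidence of 561, at the 24.1 percentile. Its partners in the core complex differed: SKI8, which also serves in RNA decay outside meiosis, had a score of 0.909 and LTM evidence of 4529, REC104 a score of 0.943 and LTM evidence of 2977, and REC102 a score of 0.820 and LTM evidence of 285. The auxiliary proteins Rec107 (Mer2), Rec114 and Mei4, which assemble on the chromosome axis, spanned a wide range. REC107 had a score of 0.946 and LTM evidence of 5599, REC114 a score of 0.717 and LTM evidence of 118, and MEI4 a score of 0.489 and LTM evidence of 24.0. MEI4 thus fell just short of the cut-off.

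The chromosome axis genes held some of the highest starts. REC8, the meiotic subunit of cohesin, had the highest score and LTM evidence of the 29, at 0.971 and 17930, with a CHX value of 4.25. MEK1, the kinase that turns repair away from the sister chromatid, had LTM evidence of 16928 and a score of 0.859. By LTM evidence REC8 stood at the 90.9 percentile of annotated ORFs and MEK1 at the 90.1 percentile. By CHX value REC8 was at the 93.9 percentile and MEK1 at the 58.6 percentile. HOP1, an axis protein with a HORMA domain, had a score of 0.857 and LTM evidence of 4596. PCH2, the ATPase that removes Hop1 from synapsed chromosomes, had a score of 0.891 and LTM evidence of 1812. RED1, the third main axis protein gene, had no row at its annotated start.

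All 6 strand exchange genes were rated, and 5 of the 6 lay above the CHX median of all annotated ORFs. DMC1 had the highest CHX value of all members, 4.72 at the 94.6 percentile, with LTM evidence of 1608 at the 37.5 percentile and a score of 0.844. MND1 and HOP2, whose proteins form a dimer that helps Dmc1, had CHX values of 4.47 and 2.09, LTM evidence of 8016 and 1755, and scores of 0.957 and 0.918. MEI5 and SAE3 encode a further pair of Dmc1 helpers and were far apart: LTM evidence was 1023 at MEI5, with a score of 0.913, and 37.8 at SAE3, with a score of 0.511. HED1, a meiosis-specific regulator of strand exchange, had a score of 0.758 and LTM evidence of 491.

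The synapsis and crossover genes were uneven, with 6 of 7 annotated ORFs rated. MSH4 and MSH5 encode the subunits of a single heterodimer that holds recombination intermediates. MSH4 had LTM evidence of 17692 and a score of 0.938, against 1.94 and 0.198 at MSH5, the lowest of all members by both measures. Their CHX values were close, at 0.334 for MSH4 and 0.447 for MSH5. HFM1, the helicase also called Mer3, had LTM evidence of 4467 and a score of 0.940. ZIP2 and SPO16, whose proteins bind each other, had LTM evidence of 946 and 28.3 and scores of 0.893 and 0.635. ECM11, a component of the central region of the synaptonemal complex, had LTM evidence of 649 and a score of 0.835. ZIP1, the transverse filament of that complex, had LTM evidence of 128, at the 13.4 percentile, a score of 0.617 and a CHX value of 0.639, at the 67.7 percentile.

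The remaining genes act at telomeres, at the first division or on RNA. NDJ1 and CSM4, which tie telomeres to the moving nuclear envelope, had LTM evidence of 676 and 1869 and scores of 0.801 and 0.853. SPO13, which keeps sister chromatids together through the first division, had LTM evidence of 9261, a score of 0.966 and a CHX value of 1.89. MUM2, part of the messenger RNA methylation complex, had LTM evidence of 6277 and a score of 0.929. MER1, which promotes the splicing of meiotic transcripts, had LTM evidence of only 96.3, at the 11.9 percentile, yet a score of 0.861.

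At 15 of the 29 genes (51.7%) the annotated start had the highest CHX value of all candidate starts that share its stop codon, against 63.8% of all annotated ORFs. SAE3 was the only one of the other genes where the start with the highest CHX value was itself rated. At DMC1, for example, an ACG 503 nt downstream, with the intron of 92 nt counted, had a CHX value of 15.4 but LTM evidence of 0.0536.

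RED1, MLH3, SPO22 and MAM1 had no ORF of the annotated class. RED1 and MLH3 had 0 rows beginning at their annotated start. Of other candidates RED1 had 52, of which 3 were rated, and MLH3 had 64, of which 9 were rated. Over all genes and classes 25868 of 192230 candidates were rated. SPO22, also called ZIP4, which links crossover and synapsis proteins, had a row at its annotated AUG in the class named new. That ORF had a score of 0.960, LTM evidence of 14201 at the 87.1 percentile and a CHX value of 2.36, but it was only 31 codons long. The deposited SK1 annotation gives SPO22 an intron of 89 nt, which leaves a coding length of 2929 nt with a remainder of 1 after division by the codon size. The S288C annotation has an intron of 90 nt in a gene of the same span of 3018 nt, which leaves 2928 nt and 975 codons. When the S288C gene was read with the intron length of the SK1 annotation, a stop codon came after 31 codons. MAM1, a subunit of monopolin that makes sister kinetochores face the same pole, had an ORF of 303 codons at its annotated AUG in a class named Ciso, with a score of 0.708 and LTM evidence of 29.0. That ORF ends at 382753 on SK1 chromosome 5, against 382750 in the annotation. A shorter MAM1 form from an AAG 90 nt downstream had a score of 0.643 and LTM evidence of 31.0.

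**Figure D2:**
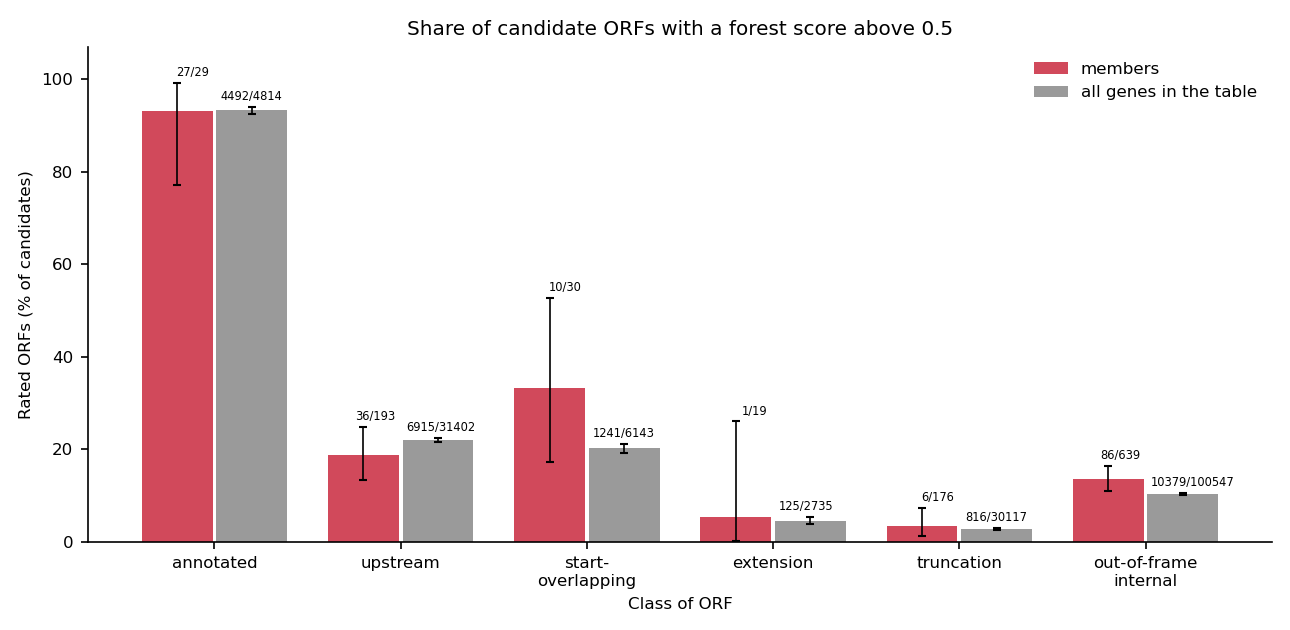
Share of candidate ORFs that were rated (% of candidates, from 0) for the 33 members (red, left of each pair) and all genes in the table (grey), by class of ORF, with exact 95% intervals and the counts above the bars. Intervals cover the counting of candidates alone and treat candidates of the same gene as independent, which they are not. The members' interval includes the share of all genes in the classes annotated, upstream, start-overlapping, extension and truncation. For internal ORFs it does not (13.5% against 10.3%), and this difference was not tested.

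A truncation starts inside the annotated ORF in the same frame and gives a protein that lacks its first residues. Of 176 candidate truncations at the members 6 (3.41%, exact 95% interval 1.26 to 7.27%) were rated, in 5 genes, and 2.71% were rated over all genes. Of those at AUG codons 5 of 25 (20.0%, interval 6.83 to 40.7%) were rated, against 10.3% over all genes. At near-cognate codons, which differ from AUG by a single base, 1 of 151 (0.662%) was rated, against 1.38% over all genes. The deposited notes warn that calls of truncated and internal ORFs are very often false positives, since elongating ribosomes also leave footprints there.

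In 3 genes with a weak annotated start, the downstream AUG had the stronger LTM evidence. MSH5 had an AUG 12 codons downstream of the annotated one, at 182722 on SK1 chromosome 4, with a score of 0.841 and LTM evidence of 1705, against 0.198 and 1.94 at the annotated AUG, a ratio of 879. MEI4 had an AUG 8 codons downstream, at 246444 on chromosome 5, with a score of 0.80 and LTM evidence of 669, against 0.489 and 24.0 at the annotated AUG, a ratio of 27.9. SAE3 had an AUG 20 codons downstream, at 261758 on chromosome 8, with a score of 0.882 and LTM evidence of 406, against 0.511 and 37.8 at the annotated AUG, a ratio of 10.7. These are the genes with the 3 lowest forest scores among the 29 annotated ORFs. The score is built on features of regressions that include the LTM footprints, so a low score is not separate from low LTM evidence. Among all genes with a rated AUG truncation and an annotated ORF, the truncation exceeded the annotated start in 138 of 315 pairs (43.8%).

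The CHX value did not always point to the same start. It was 1.12 at the downstream AUG of SAE3, 4.08 times that of the annotated AUG, and 0.165 at that of MEI4, 1.43 times the annotated value. At MSH5 it was 0.257 at the downstream AUG and 0.447 at the annotated AUG. At HOP1, whose rated AUG 28 codons downstream had lower LTM evidence than the annotated AUG, the CHX value was 1.30 at the downstream AUG and 0.556 at the annotated AUG, a ratio of 2.33.

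The HOP1 truncations had lower LTM evidence than the annotated start, and that of MLH3 had no annotated row to be set against. HOP1 had an AUG 28 codons downstream, at 229738 on chromosome 9, with a score of 0.828 and LTM evidence of 1310, against 4596 at the annotated AUG. Its UUG 24 codons downstream, at 229726, had a score of 0.618 and LTM evidence of 275. A further HOP1 AUG 93 nt downstream was not rated, at 0.265, and had LTM evidence of 16.1 but a CHX value of 3.49, against 1.30 at the AUG 28 codons downstream. MLH3, whose protein resolves crossover intermediates, had an AUG 46 codons downstream, at 250713 on chromosome 16, with a score of 0.784 and LTM evidence of 34.7.

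The coding sequence from the annotated AUG to 3 codons beyond the downstream AUG is given for these 5 genes, because it shows the codons that separate the starts. Capitals mark the annotated and the rated AUG. The letters are those of the S288C reference genome of RefSeq (R64), in which each start was found at the same distance from the annotated AUG. In S288C coordinates the downstream AUG begins at 178370 on the plus strand of chromosome IV for MSH5, at 239750 on the minus strand of chromosome V for MEI4, at 262493 on the minus strand of chromosome VIII for SAE3, at 226686 on the plus strand of chromosome IX for HOP1, and at 241359 on the minus strand of chromosome XVI for MLH3.
MSH5: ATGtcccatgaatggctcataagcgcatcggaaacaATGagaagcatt
MEI4: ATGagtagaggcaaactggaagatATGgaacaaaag
SAE3: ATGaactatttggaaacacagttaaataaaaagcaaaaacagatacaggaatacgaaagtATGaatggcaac
HOP1: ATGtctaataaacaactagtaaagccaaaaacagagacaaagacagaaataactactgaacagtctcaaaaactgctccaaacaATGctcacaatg
MLH3: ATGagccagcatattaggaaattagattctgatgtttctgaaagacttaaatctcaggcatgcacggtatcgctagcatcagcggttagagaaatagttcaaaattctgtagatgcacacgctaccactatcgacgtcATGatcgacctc
In the HOP1 stretch the final 3 letters are the AUG 93 nt downstream. In the MLH3 stretch the rated AUG follows 46 codons of the annotated protein. The HOP1 UUG was not found at its distance in S288C and is not shown.

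An extension starts upstream in the frame of the annotated ORF. MUM2 carried the only rated extension of the members, 1 of 19 candidates (5.26%, interval 0.133 to 26.0%), against 4.57% over all genes. It begins at a UUG 51 nt (17 codons) upstream, at 339867 on SK1 chromosome 2, and encodes 383 residues, against 366 from the annotated AUG. Its score was 0.736 and its LTM evidence 656, against 0.929 and 6277 at the annotated AUG. The other candidate extensions all began at near-cognate codons too, and none of them scored above 0.1. At that cut-off 1 of 19 member extensions passed (5.26%), against 23.3% over all genes. A separate UUG 71 nt upstream of MUM2 opens an ORF of 7 codons that had the highest score of any rated upstream ORF of the members, 0.914, with LTM evidence of 1138. It ends at 339864, within 3 bases of the extension's start at 339867.

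**Figure D3:**
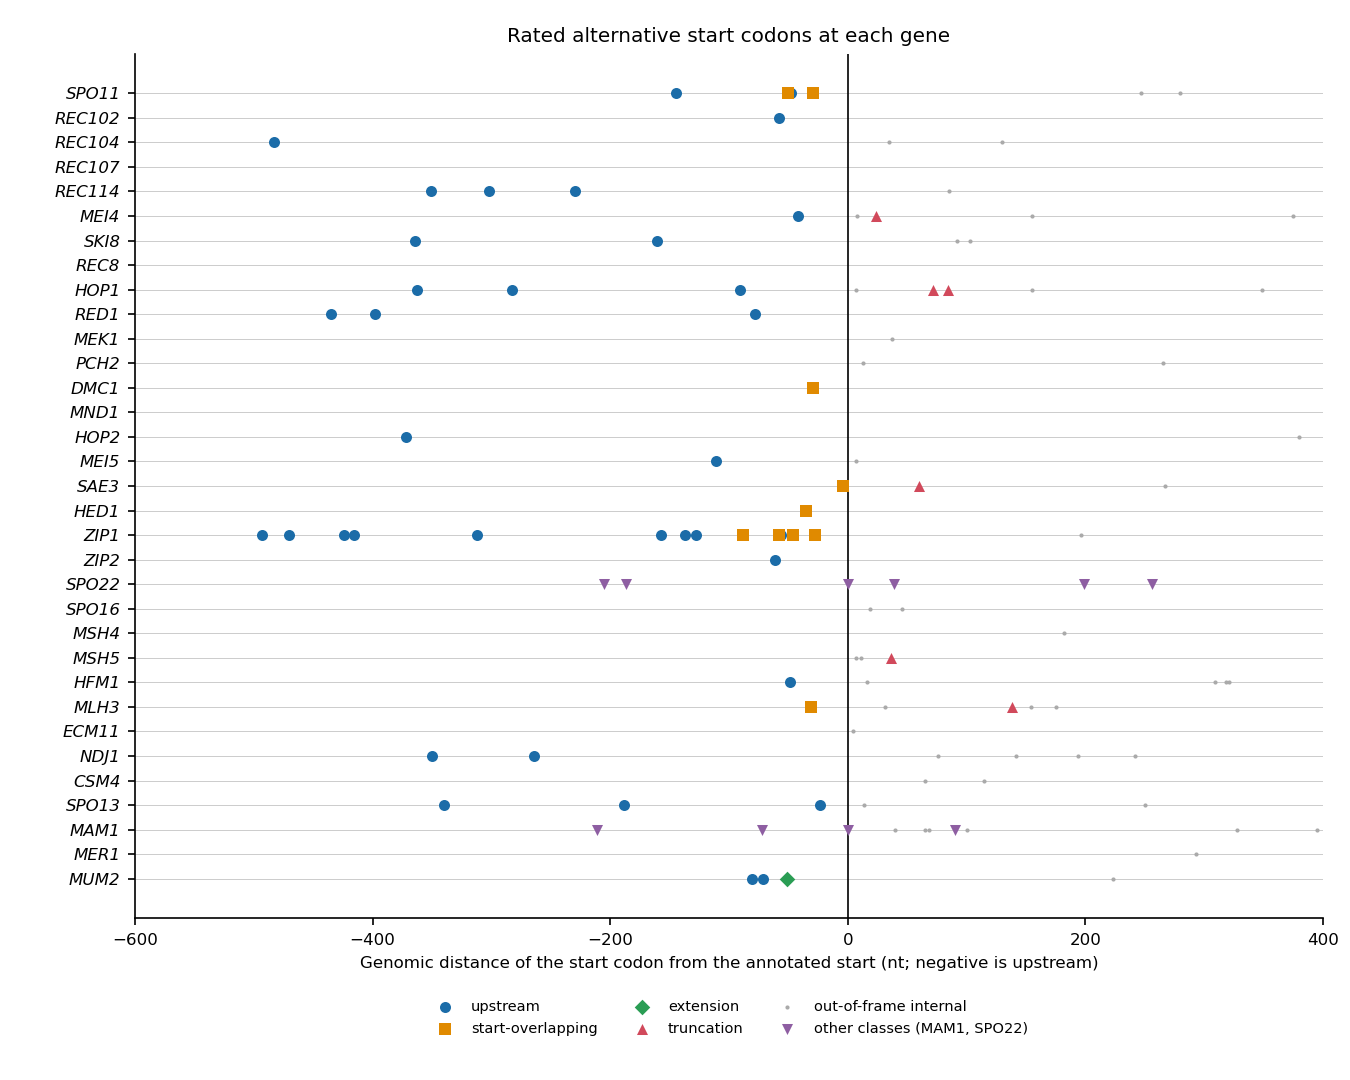
Genomic distance in nt of each rated alternative start codon from the annotated start of its gene (vertical line at 0; negative is upstream), by class of ORF, for starts up to 400 nt downstream; introns are counted in the distance. ZIP1 has 13 rated starts among 29 candidates upstream of its annotated AUG, and REC107 and MND1, with 21 and 5 candidates in all, have no rated alternative start.

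Upstream ORFs, which start and stop before the annotated AUG, were rated in 36 of 193 candidates at the members (18.7%, interval 13.4 to 24.9%), against 22.0% over all genes. They fell in 16 of the 29 members with a candidate (55.2%), against 58.2% of all genes with a candidate. By codon, 24 of 68 AUG candidates of the members were rated (35.3%, interval 24.1 to 47.8%), against 29.3% over all genes. Of near-cognate candidates 12 of 125 were rated (9.60%, interval 5.06 to 16.2%), against 19.4% over all genes. Without ZIP1, a count chosen after seeing the data, 19 of 63 AUG candidates (30.2%) and 8 of 106 near-cognate ones (7.55%) were rated. UUG was the near-cognate codon most often rated at the members, in 5 of 24 candidates (20.8%), against 33.1% over all genes. Of 28 AUU candidates 3 were rated (10.7%, against 16.7% over all genes) and of 22 AUA candidates 2 (9.09%, against 16.7%). Of 16 AAG candidates 0 were rated, and over all genes only 4.07%. Candidates of the same gene share a leader and its RNA, so these counts are not of independent items and the differences were not tested. The rated upstream ORFs were short, with a median of 8 codons at the members and 10 codons over all genes.

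Most upstream starts were weak beside the annotated start of their gene. LTM evidence was higher at the upstream start in 6 of 33 rated upstream ORFs of members with an annotated ORF (18.2%), against 16.7% over all genes. Of these 6, 4 belong to ZIP1, and without ZIP1, a count chosen after the data had been seen, it was 2 of 24 (8.33%). NDJ1 had rated AUGs 264 and 350 nt upstream, each opening an ORF of 3 codons, with scores of 0.90 and 0.794. The nearer had LTM evidence of 883, which is 1.31 times that of the annotated AUG, and a CHX value of 1.37, which is 6.07 times that of the annotated AUG. The farther had LTM evidence of 203, or 0.300 times the annotated value. RED1 had an AUG 435 nt upstream with an ORF of 9 codons, a score of 0.872 and LTM evidence of 186. At MEI4, the AUG 42 nt upstream, chosen here after its values were seen, had a score of 0.664 and LTM evidence of 225, which is 9.41 times that of the annotated AUG.

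At 4 further genes with an upstream ORF among the 10 highest-scoring, its LTM evidence was far below that of the annotated AUG. SPO13 had a UUG 23 nt upstream with a score of 0.820 and LTM evidence of 29.5, against 9261 at the annotated AUG. HFM1 had an AUG 49 nt upstream with a score of 0.819 and LTM evidence of 109, against 4467 at the annotated AUG. HOP1 had an AUG 91 nt upstream with a score of 0.717 and LTM evidence of 41.9, against 4596. SPO11 had an AUA 145 nt upstream with a score of 0.755 and LTM evidence of 48.1, against 561. At MUM2 the difference was smaller, with LTM evidence of 1138 at the UUG 71 nt upstream, against 6277 at the annotated AUG, a ratio of 0.181.

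The sequence around 4 of these upstream starts and around the MUM2 extension is shown because all but that of HFM1 begin at UUG and not at AUG. Capitals mark the start codon. Letters are again from S288C (R64), where these starts begin at 353344 (MUM2 extension) and 353364 (MUM2 upstream ORF) on the minus strand of chromosome II, at 1032299 on the plus strand of chromosome IV (ZIP1), at 132024 on the plus strand of chromosome VIII (SPO13) and at 31685 on the minus strand of chromosome VII (HFM1).
MUM2 extension: tgatcttttgatTTGacctcattctttttg
MUM2 upstream ORF: gaatcagctggcTTGgtacttgatcttttg
ZIP1 upstream ORF: tctttgttaaagTTGaccgccttgaagaga
SPO13 upstream ORF: aaagaaaacggaTTGaagttgagtcgagaa
HFM1 upstream ORF: ctttcattgaaaATGattgatacctcaagg
The NDJ1 and RED1 upstream starts named above were not found at their distance in S288C with the same codon and are not shown.

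Start-overlapping ORFs begin upstream in another frame and run past the annotated AUG. Of 30 candidates at the members 10 were rated (33.3%, interval 17.3 to 52.8%), against 20.2% over all genes, and they fell in 6 genes. ZIP1 accounts for 4 of the 10. Without ZIP1, a count chosen after the data had been seen, 6 of 25 were rated (24.0%).

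MLH3 had the strongest start of this class. Its AUG 31 nt upstream of the annotated AUG, at 250882 on SK1 chromosome 16, opens an ORF of 15 codons with a score of 0.941, LTM evidence of 10653 and a CHX value of 5.74. These values stand at the 81.0 percentile of annotated ORFs for LTM evidence and at the 95.8 percentile for the CHX value. The AUG 46 codons inside the gene, named above, had LTM evidence of 34.7 and a CHX value of 0.247. The annotated AUG, which lies between these starts, had no row in the table.

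At HED1, DMC1, SPO11 and SAE3 the overlapping starts had lower LTM evidence than the annotated AUG. HED1 had an AUG 35 nt upstream with an ORF of 55 codons, a score of 0.674 and LTM evidence of 52.5, which is 0.107 times that of the annotated AUG. DMC1 had an AUG 29 nt upstream with a score of 0.670 and LTM evidence of 7.83, against 1608 at the annotated AUG. Its CHX value of 1.06 was nevertheless at the 77.9 percentile of annotated ORFs. SPO11 had an AUA 50 nt and an AUU 29 nt upstream that share a stop codon, with scores of 0.634 and 0.508 and LTM evidence of 10.1 and 67.2. SAE3 had an AAG 4 nt upstream with a score of 0.558 and LTM evidence of 1.71.

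ZIP1 had the most rated starts before its AUG of all members. Of 29 candidates in its leader 13 were rated, 9 of 24 upstream ORFs and 4 of 5 start-overlapping ORFs, and at 7 of the 13 the LTM evidence exceeded that of the annotated AUG, 128. No other member had more than 4 rated leader starts, or more than 16 leader candidates. Over all genes 22.0% of upstream and 20.2% of start-overlapping candidates were rated. Of the rated ones with an annotated ORF to compare, 16.7% and 19.8% exceeded its LTM evidence. The highest number of rated upstream ORFs at any gene was 16. At ZIP1, an AUA 58 nt upstream had LTM evidence of 4897, which is 38.3 times the annotated value and at the 62.1 percentile of annotated ORFs. Its score was 0.854, and its CHX value of 0.0743 was 0.116 times that of the annotated AUG. UUG codons 88 and 46 nt upstream had LTM evidence of 687 and 257 and scores of 0.90 and 0.839. An AUA 28 nt upstream had LTM evidence of 91.0 and a score of 0.606. These 4 ORFs are in the same frame and end together at 1031004 on SK1 chromosome 4, past the annotated AUG at 1030988.

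The rest of the ZIP1 leader held short upstream ORFs. A UUG 137 nt upstream had a score of 0.850 and LTM evidence of 495, and an AUU 56 nt upstream a score of 0.813, LTM evidence of 67.8 and a CHX value of 0.589. The AUU lies 2 nt from the AUA with LTM evidence of 4897, in another frame, and whether the table separates the footprints of such close codons was not tested. Of the rated AUGs, those 470 and 424 nt upstream had LTM evidence of 258 and 183, both above the annotated AUG. By CHX value none of the 13 exceeded the annotated AUG, the nearest being the AUU at 0.921 times its value.

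**Figure D4:**
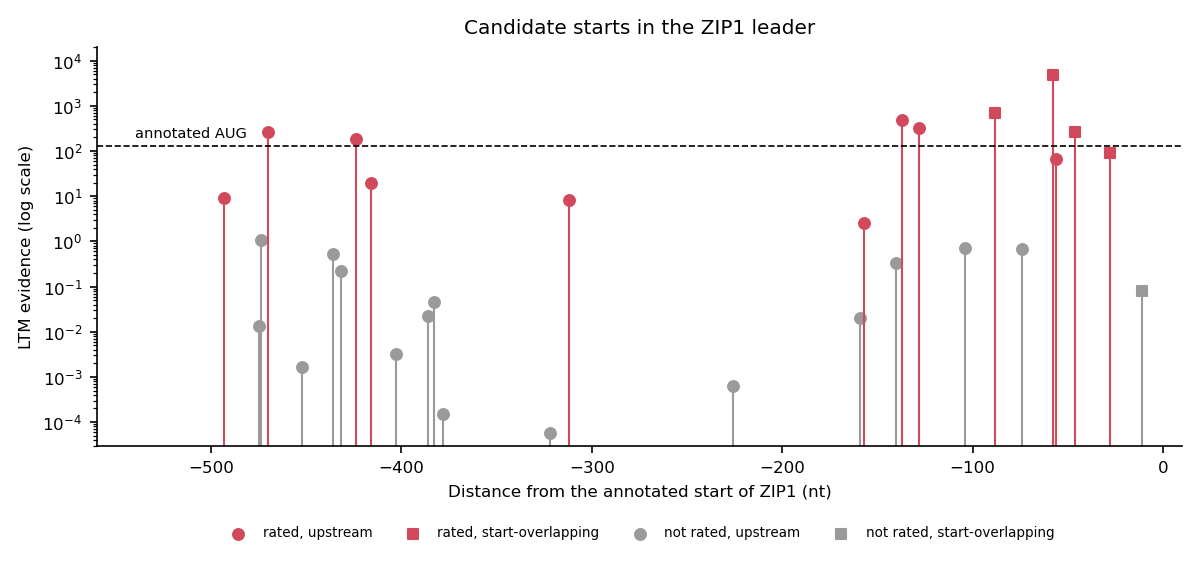
LTM evidence (log scale) of the 29 candidate starts before the ZIP1 AUG, by distance from it in nt; red symbols are rated, grey are not, squares are start-overlapping ORFs, and the dashed line marks the annotated AUG at 128. The highest point is the AUA 58 nt upstream at 4897, and 7 rated starts lie above the line.

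The strongest overlapping starts of MLH3 and ZIP1, picked after their values were seen, are shown, with capitals at the start codon, because the start of ZIP1 is an AUA and that of MLH3 an AUG. They begin at 241528 on the minus strand of chromosome XVI and at 1032378 on the plus strand of chromosome IV of S288C (R64).
MLH3 overlapping ORF: tttcaaggaagaATGaacgtgaactcgtca
ZIP1 overlapping ORF: ttaacagtaagcATAtttttttctttgaga

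Out-of-frame internal ORFs were rated in 86 of 639 candidates at 25 members (13.5%, interval 10.9 to 16.4%), against 10.3% over all genes; the caution of the deposited notes on internal calls applies to all of them. Candidates of the same gene are not independent, with up to 8 rated in a single member, and the difference was not tested. Those near the annotated start were rated more often in both sets. Within 50 nt of the annotated start 15 of 47 were rated at the members (31.9%), against 35.7% over all genes, and farther in 71 of 588 (12.1%), against 9.02%. Candidates of this class that lie before the annotated start, at the members the 4 of MND1, are in neither count. LTM evidence was higher than at the annotated start in 10 of 72 rated internal ORFs of members (13.9%), against 8.47% over all genes.

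Of the 10 highest-scoring internal ORFs, those of NDJ1, MSH5, REC114, SPO16 and ECM11 had higher LTM evidence than the annotated ORF of the gene. At NDJ1 an AUG 76 nt downstream opens an ORF of 16 codons with a score of 0.930 and LTM evidence of 2603, which is 3.85 times that of the annotated AUG. At MSH5 an AUG 7 nt downstream opens an ORF of 4 codons with a score of 0.914 and LTM evidence of 546, which is 282 times that of the annotated AUG. MSH5 thus had LTM evidence of 546 and 1705 at AUGs 7 and 36 nt downstream of an annotated AUG with 1.94. SPO16 had an AUG 46 nt downstream with a score of 0.855 and LTM evidence of 108, which is 3.82 times that of the annotated AUG. A rated SPO16 AUG 19 nt downstream with the same stop codon, named after its values were seen, had a lower score of 0.771 but LTM evidence of 1135, a ratio of 40.1. REC114 had an AUG 1108 nt downstream with a score of 0.896 and a ratio of 4.23. ECM11 had a CUG 4 nt downstream with a score of 0.894 and a ratio of 1.07. At REC104 an AUG 35 nt downstream had a score of 0.878 and 0.101 times the annotated LTM evidence. The remaining 4 of the top 10 were a HOP2 AUG at 380 nt (score 0.852), a MEI5 AUC at 7 nt (0.840), a HOP1 AUA at 7 nt (0.829) and a MAM1 UUG at 395 nt (0.818). The HOP2 distance counts its intron of 70 nt. The MAM1 UUG had LTM evidence of 122, against 29.0 in the Ciso row at its annotated AUG. The only rated ORF that runs over an annotated stop codon was at CSM4, from an AUU, with a score of 0.540. CSM4 had 2 candidates of this class, and REC104 and SAE3 had 1 each. The share of this class rated over all genes was not computed, so this count has nothing to be set against.

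**Figure D5:**
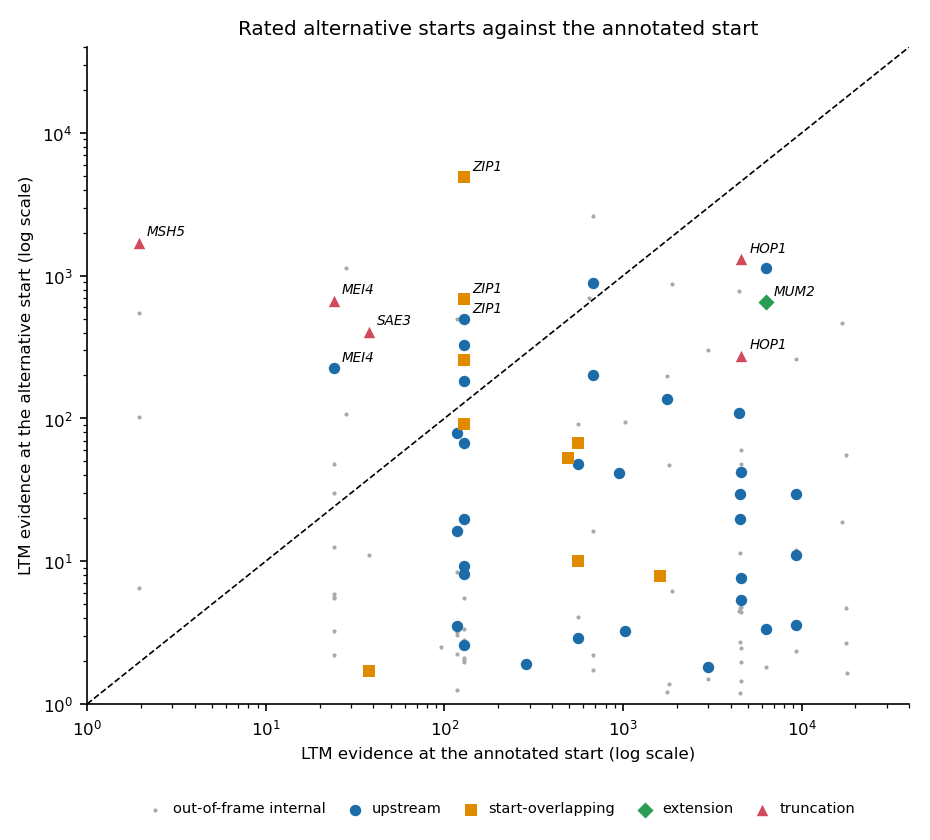
LTM evidence of each rated alternative start (vertical, log scale) against that of the annotated start of the same gene (horizontal, log scale), by class, for the members with an annotated ORF; the dashed line marks equal values. MSH5, MEI4 and SAE3 truncations lie above the line by 879, 27.9 and 10.7 times, and the HOP1 truncations and the MUM2 extension lie below it.

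Splicing and promoter sequence are described next, and whether the choice of genes depended on them was not tested. In the deposited annotation 11 of the 33 are spliced (33.3%), against 4.91% of all genes. They are REC102, REC107, REC114, MEI4, PCH2, DMC1, MND1, HOP2, SAE3, SPO22 and HFM1. MND1 is an extreme case, with the AUG alone in the first exon of 3 nt before an intron of 83 nt. Its annotated start had LTM evidence of 8016. None of its 4 other candidates, all of the internal class, was rated, and over all genes 10.3% of that class were rated. HOP2 has 2 exons and a coding length of 657 nt in the SK1 annotation, against 3 exons and 645 nt in S288C, so its annotated ORF of 218 codons in the table differs from the S288C protein.

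Ume6 binds a promoter element called URS1 and is a main regulator of early meiotic genes. Its core was searched as GGCGGC and, for the other strand, GCCGCC, in the 300 bases before each annotated start in S288C (R64). Of the 33 members 19 had a match (57.6%), against 312 of 6008 genes of S288C (5.19%). There were 20 matches, MEK1 having 2, and their first base lay between 20 and 196 nt upstream of the start codon, with a median of 110 nt. The nearest was that of ZIP1, at 20 nt, between its AUA 28 nt upstream and the annotated AUG. Matches describe letters only and do not show binding. The members are early meiosis genes, the kind that Ume6 regulates, so the share with a match is not independent of their choice. An A at position 3 before the AUG, common at yeast starts, was found in 21 of 33 members (63.6%), against 61.0% of all genes.

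A further list of 36 recombination and repair genes outside the 33, all found, gives a neighbouring group. It held 27 rated of 33 annotated ORFs (81.8%), and the unrated ones were RDH54, SLX1, CSM1, MUS81, CST9 and RMI1. Median LTM evidence was 1608 in the members and 1209 in that list, and the median CHX value was 0.556 in the members and 0.189 in that list. Of that list 2 of 36 genes (5.56%) had the URS1 core and 0 of 36 were spliced. Its rated upstream ORFs were 32 of 153 (20.9%), its start-overlapping ORFs 17 of 61 (27.9%), its extensions 0 of 5 and its truncations 3 of 274 (1.09%). CST9, also called ZIP3, works with the synapsis proteins above and resembled MSH5. An AUG 41 codons downstream had a score of 0.875 and LTM evidence of 2178, against 0.0534 and 0.645 at the annotated AUG, a ratio of 3375. The other rated truncations of the list began at an AUG 92 codons into CSM2, with a score of 0.583, and a UUG 11 codons into PSY3, with a score of 0.610. Both encode subunits of the Shu complex.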

How the data were processed

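Ribosome footprints of LTM-treated SK1 cells were sequenced from 11 libraries, and CASAVA, bcl2fastq 2.17 and Bowtie2 were used per the submitters' processing notes; the sources used here do not give the settings. The notes deposited with the table say that the authors fitted regressions to LTM footprints and to a CHX data set, and that a random forest on 6 regression features gave each ORF a score. LTM evidence and the CHX value are deposited scores, and the deposited ratio divides the CHX value of an ORF by the highest among ORFs that share its stop codon. Column names end in nosat, which is not explained, so which libraries entered is uncertain. The forest was trained on annotated coding sequences, so their scores are not independent of that training. Columns for single libraries number 0, so no conditions were compared and the precision per library is unknown.

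Genes were matched by name in the deposited annotation, and positions are SK1 coordinates counted from 1. Shares, exact (Clopper-Pearson) 95% intervals, medians and ratios of LTM evidence were computed with Python 3.11.15, pandas 2.3.3, numpy 2.4.6 and scipy 1.17.1, and the counting was tested on simulated data. Intervals cover counting alone. The members and gene lists were chosen with earlier results of these data known, so no test was made. Sequences come from S288C (R64), where a start was kept if the same codon stood in the same frame at its distance from the annotated start. This held for the MUM2 extension, 5 of 6 rated truncations, all 10 rated start-overlapping ORFs and 7 of the 10 highest-scoring upstream ORFs. Named were every annotated ORF of a member, every rated extension, truncation and start-overlapping ORF, and the 10 highest-scoring rated upstream and internal ORFs; further ones named in the text were chosen after their values were seen. Cut-offs of 0.1, 0.8 and 0.9, genes without an intron, genes with a rated annotated ORF, near-cognate starts and each gene counted once were tried as alternatives.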

Additional observations from a re-analysis of the deposited data

How the results depend on the processing

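Counts of rated ORFs at the members moved with the cut-off, and the deposited notes state that no single cut-off suits every class. Annotated ORFs above 0.9 numbered 12, against 27 above 0.5. Above 0.9 the share was 41.4% at the members and 47.8% over all genes. Upstream ORFs numbered 192 above 0.1, 7 above 0.8 and 1 above 0.9, against 36 above 0.5. Their shares of candidates were 99.5%, 3.63% and 0.518%, against 97.6%, 4.92% and 1.15% over all genes. Start-overlapping ORFs numbered 25, 4 and 1 at these cut-offs, against 10. These were 83.3%, 13.3% and 3.33% of candidates, against 88.8%, 5.37% and 1.43% over all genes. Extensions numbered 0 above 0.8 and 0 above 0.9, against 1. Over all genes 1.24% and 0.146% of extensions passed these cut-offs. Truncations numbered 45 above 0.1 and 0 above 0.9, against 6. Above 0.1 the share was 25.6%, against 21.8% over all genes, where 0.129% passed 0.9. Internal ORFs numbered 608, 11 and 2 above 0.1, 0.8 and 0.9, against 86. Their shares were 95.1%, 1.72% and 0.313%, against 94.3%, 1.16% and 0.218% over all genes. With each gene counted once there were 16 upstream, 6 start-overlapping and 25 internal ORFs. Of genes with a candidate these were 55.2%, 40.0% and 78.1%, against 58.2%, 35.7% and 65.3% over all genes. With near-cognate starts alone there were 12 upstream ORFs, 1 truncation and 46 internal ORFs. Of near-cognate candidates these were 9.60%, 0.662% and 9.13%, against 19.4%, 1.38% and 7.45% over all genes. In genes with a rated annotated ORF there were 3 truncations, against 6, as this setting leaves out MSH5, MEI4 and MLH3. The share of candidates over all genes was not computed at this setting. Without ZIP1, an alternative chosen after seeing the data, there were 6 start-overlapping ORFs, and 2 rated upstream ORFs with LTM evidence above the annotated start, against 6. In rated annotated ORFs the median score was 0.891, against 0.861, and median LTM evidence 1755, against 1608; in genes without an intron median LTM evidence was 1023. These values follow from which ORFs or genes each setting keeps. Leaving out ORFs that overlap another annotated gene, also chosen after seeing the data, moved no count by over 1.5 times.

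The main limits are that a single value per ORF carries no replicate error, no time and no condition, that depth is unknown, that annotated ORFs helped to train the score, and that the notes warn of false truncated and internal calls. The letters shown are of S288C, while the values were measured in SK1.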
